A study of Mus musculus with 6 samples.

Results

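The enzymes that make and salvage deoxynucleotides were followed in retinas of newborn mice with and without cyclin D1, as a set of 9 genes: Rrm1, Rrm2, Rrm2b, Tyms, Tk1, Tk2, Dut, Dck and Dtymk. They were chosen by name, and every probe set annotated to 1 of them alone was used, which gave 24 of the 45101 probe sets on the array and 9 of 18193 named genes. The wildtype group and the cyclin D1 -/- group (called knockout here) each comprised 3 separately numbered pools of retinas taken at birth, with 1 Affymetrix array per pool. The labels give neither the strain, the number of animals per pool, nor how the Ccnd1 allele was made, and nothing shows that pools came from separate litters, so the p-values reflect variation among these pools only, which may be technical. The submitters asked how genes bound by cyclin D1 respond to its loss. The binding data were not used here.

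Dividing cells copy their genome in S phase and must then supply all 4 deoxynucleotides at once. Ribonucleotide reductase makes them from ribonucleotides, with a large subunit (Rrm1) paired either with the S phase small subunit (Rrm2) or with the p53-inducible small subunit (Rrm2b), which serves resting cells and DNA repair. Thymidylate arises from deoxyuridylate through thymidylate synthase (Tyms), or from thymidine through the cytosolic kinase Tk1 or the mitochondrial kinase Tk2, and Dtymk then phosphorylates it further. Dut hydrolyses dUTP, which keeps uracil out of DNA and supplies deoxyuridylate, and Dck salvages deoxycytidine and purine deoxynucleosides. Transcripts of Rrm1, Rrm2, Tyms, Tk1, Dut and Dtymk are known to rise in cycling cells and are called S phase dependent below, and Rrm2b, Tk2 and Dck are called constitutive. The newborn mouse retina still holds dividing progenitors beside young neurons.

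Signals are quantile normalised intensities in array units, log2 values are log2(signal + 16), and differences are knockout minus wildtype on that scale, which understates changes of dim probe sets. The probe set with the highest mean stands for a gene. Levels of different genes come from different probes and are not compared with each other. Median deposited signals per array were between 40.6 and 50.5 units. With 6 arrays, precision is limited by their number. Ccnd1 itself was 12.0-fold lower in the knockout pools (adjusted p = 5.78e-07 with limma), and the groups did not overlap. All 15 retina marker genes that were named here were bright enough to test, and 3 were called lower and 3 higher in the knockout. Of all tested genes, 2.63% were called lower and 2.03% higher. Lower were Ptf1a (-2.40) and Tfap2b (-1.57), factors of amacrine and horizontal cells, and Lhx2 (-0.66), a progenitor factor. Higher were Sncg (0.86) and Gap43 (0.70), known from ganglion cells and growing axons, and Pdc (0.83), of photoreceptors (limma adjusted p from 0.00108 to 0.0108 for the 6). The rest of the tested retina markers were not called, so no cell type is described by these genes alone. They were Rax (0.07), Pax6 (-0.05), Six3 (-0.29), Six6 (-0.24), Otx2 (0.02), Crx (0.31), Nrl (0.37), Rcvrn (0.26) and Isl1 (0.18). Lens marker genes held 0.0555% to 0.152% of the summed signal in wildtype pools and 0.425% to 1.10% in knockout pools, and the part of these retina and lens markers in the results below was not tested. Hybridisation controls (BioB and BioC) were dimmer on the arrays of wildtype pools 1 and 2 and knockout pool 3 than on the remaining 3, and pools 1 and 2 of a genotype were more alike (SD of the log2 difference 0.22 and 0.21) than any other pair (0.28 to 0.52).

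Among the deoxynucleotide enzymes, Rrm1, Rrm2, Tk1 and Dut, all S phase dependent, fell in knockout retinas by 1.54-fold to 1.95-fold. No member was called higher, and none of the 3 constitutive enzymes passed the test. Of the 8 members bright enough to test, 4 were therefore called lower at an adjusted p under 0.1 (limma, Benjamini-Hochberg over 10916 genes), against 2.63% of all tested genes called lower and 2.03% called higher. Tyms was too dim to test. In bulk retina, fewer dividing cells and less RNA per cell cannot be told apart.

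Both subunits of the S phase ribonucleotide reductase fell. Rrm2, the small subunit, which holds the tyrosyl radical used in catalysis, had signals of 862, 912 and 805 in wildtype pools 1, 2 and 3 and of 388, 430 and 486 in knockout pools 1, 2 and 3. Every knockout pool lay well below every wildtype pool, and the lowest wildtype value was still above the highest knockout value by a wide margin. Its log2 level was 9.77 ± 0.09 in wildtype and 8.81 ± 0.16 in knockout pools (SD, n = 3), a difference of -0.96 (SE 0.11, limma adjusted p = 0.00388). Rrm1, the large subunit, which carries the active site and the allosteric sites, had signals of 665, 682 and 583 in the wildtype pools and 356, 346 and 419 in the knockout pools. The groups again did not overlap, and wildtype pool 3 was the lowest of its group while knockout pool 3 was the highest of its own. The log2 level of Rrm1 was 9.36 ± 0.12 against 8.60 ± 0.14 (n = 3), 1.69-fold lower in the knockout (difference -0.76, SE 0.11, limma adjusted p = 0.0108).

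Of the enzymes that feed and salvage thymidylate, Tk1 and Dut fell. Tk1, the cytosolic thymidine kinase, had signals of 274, 285 and 277 in the wildtype pools and 142, 152 and 164 in the knockout pools. The 3 wildtype values were nearly equal, with an SD of 0.03 on the log2 scale, and all lay above the knockout values. Tk1 was 1.75-fold lower in the knockout (8.20 ± 0.03 against 7.40 ± 0.09, n = 3, limma adjusted p = 0.00801). Dut, the dUTPase, had signals of 1073, 1084 and 949 in the wildtype pools and 642, 659 and 692 in the knockout pools, again without overlap. Its fall was the smallest of the 4, from 10.04 ± 0.11 to 9.41 ± 0.05 (n = 3), or 1.54-fold (limma adjusted p = 0.00802).

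Dtymk, the kinase next in line after thymidylate, differed less. Its signals were 408, 412 and 344 in the wildtype pools and 293, 308 and 349 in the knockout pools. The groups overlapped, because wildtype pool 3 lay below knockout pool 3. The difference was -0.28 (95% interval -0.54 to -0.01) and did not pass the correction (adjusted p = 0.347 with limma), although it passed without wildtype pool 3 (difference -0.36, adjusted p = 0.0559).

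Tyms, thymidylate synthase, the target of fluorouracil, was represented by 4 probe sets, all below the brightness needed for the test. Its brightest read 39.5, 38.7 and 43.7 in the wildtype pools and 27.5, 25.9 and 32.6 in the knockout pools. The knockout pools were all lower there, but in the 3 dimmer Tyms probe sets the groups overlapped. With no filter on dim genes the brightest Tyms probe set differed by -0.34 (SE 0.14, limma adjusted p = 0.459), so a fall of Tyms was not detectable with these probe sets.

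**Figure D1:**
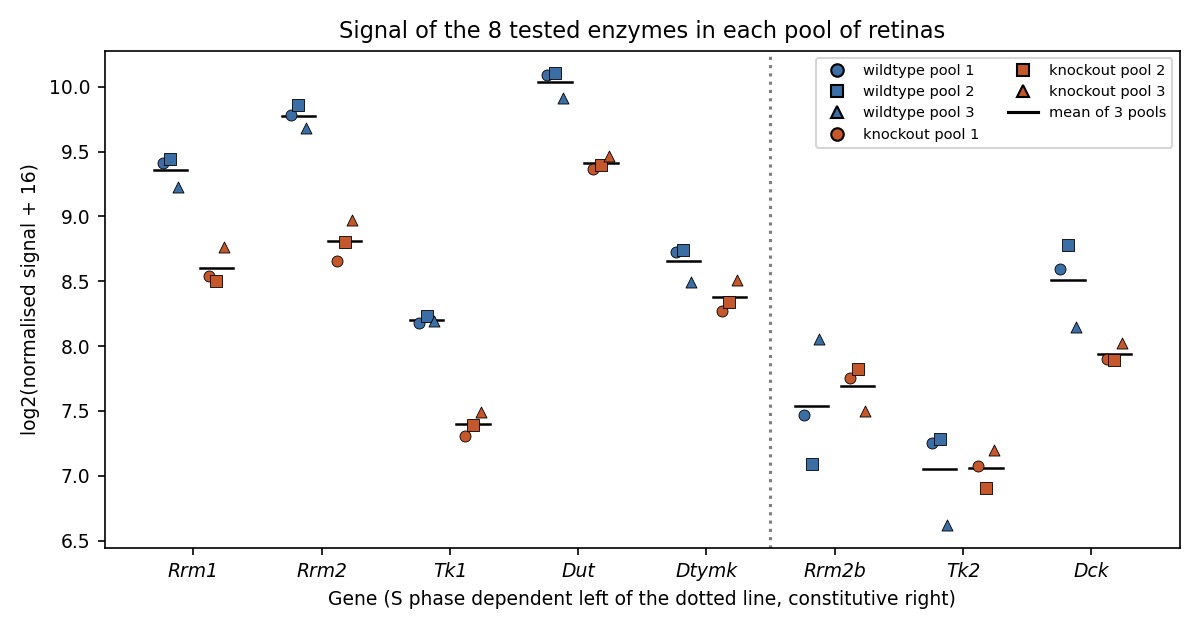
Points give log2(normalised signal + 16) of each of the 8 tested enzymes (horizontal axis) in the 3 wildtype and 3 knockout pools, and lines the mean of 3 pools; heights of different genes are not comparable. For Rrm1, Rrm2, Tk1 and Dut all knockout pools lie below all wildtype pools, whereas for Rrm2b and Tk2 the groups overlap and wildtype pool 3 stands away from wildtype pools 1 and 2.

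The constitutive enzymes gave a mixed picture. Rrm2b, the alternative small subunit of the reductase, had signals of 161, 120 and 249 in the wildtype pools and 199.9, 210 and 165 in the knockout pools. The wildtype pools spanned the whole range of the knockout pools, and the difference of 0.16 had a 95% interval from -0.39 to 0.70 (adjusted p = 0.909 with limma). Tk2, the mitochondrial thymidine kinase, read 137, 140 and 82.2 in the wildtype pools and 119, 104 and 131 in the knockout pools. Here too the groups overlapped, with wildtype pool 3 the lowest of all 6, and the difference was 0.01 (95% interval -0.46 to 0.48, adjusted p = 0.996 with limma). Falls of up to 0.39 for Rrm2b and 0.46 for Tk2 on the log2 scale lie within these intervals.

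Dck, the deoxycytidine kinase, was the exception among the constitutive enzymes. Its signals were 371, 424 and 268 in the wildtype pools and 223, 222 and 244 in the knockout pools. The knockout pools all lay below the wildtype pools, but wildtype pool 3 was close to them. The log2 difference was -0.57 (95% interval -0.95 to -0.19) and missed the threshold (adjusted p = 0.143 with limma). Without wildtype pool 3 the difference was -0.75 (adjusted p = 0.00407), and with the control-based set of arrays as a block it was -0.46 (adjusted p = 0.0729). With like pools averaged the difference was also -0.46, at an adjusted p of 0.901 (limma in each case). Dck was thus 1 of 5 members whose groups did not overlap downwards, beside Rrm1, Rrm2, Tk1 and Dut, against 9.48% of all tested genes with every knockout pool below every wildtype pool.

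Averaged by class, the S phase dependent enzymes stood 0.69 below the wildtype mean in the knockout (SD 0.11, n = 3 pools) and the constitutive enzymes 0.14 below it (SD 0.02), both as differences of mean log2 level over the 5 and 3 tested members. In the S phase dependent class the wildtype pools 1, 2 and 3 lay at 0.03, 0.07 and -0.10 and the knockout pools at -0.78, -0.72 and -0.56. In the constitutive class the wildtype pools lay at 0.07, 0.02 and -0.09 and the knockout pools at -0.12, -0.16 and -0.12. The small SD of this class mean does not show precise members. Rrm2b and Tk2 ran opposite to each other over the arrays (Pearson's r = -0.897), with SDs of 0.17 and 0.15 in the knockout pools. The constitutive mean was lowered by Dck, and the median difference of that class was 0.01, against -0.76 in the S phase dependent class and 0.02 over all tested genes. The distance between the classes was -0.55 in the knockout relative to wildtype. No p is given for these class means, since the members were chosen with earlier results known.

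**Figure D2:**
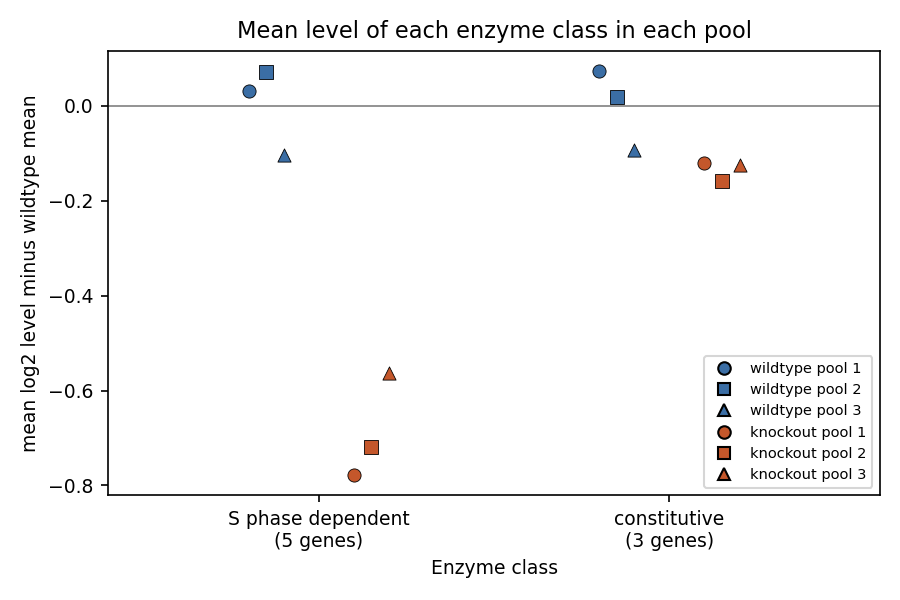
Each point is the mean log2 level of 5 S phase dependent or 3 constitutive enzymes in 1 pool, relative to the mean of the 3 wildtype pools (vertical axis, log2 units). The knockout pools lie at -0.78 to -0.56 for the S phase dependent class and at -0.16 to -0.12 for the constitutive class.

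Within functional pairs, the ratio of the S phase form to the constitutive form was lower in every knockout pool than in any wildtype pool. The log2 ratio of Rrm2 to Rrm2b, set to a wildtype mean of 0, was 0.07, 0.53 and -0.61 in the wildtype pools and -1.33, -1.26 and -0.77 in the knockout pools. All knockout pools were lower, but wildtype pool 3 came near knockout pool 3. The log2 ratio of Tk1 to Tk2 was -0.23, -0.20 and 0.43 in the wildtype pools and -0.92, -0.67 and -0.86 in the knockout pools, also without overlap. The mean changes were -1.12 and -0.82, and a two-sided exact permutation test gave p = 0.1 for each of the 2 pairs (0.1 after Benjamini-Hochberg adjustment), the smallest value that 3 pools against 3 allow. Groups without overlap always give this p, and the members were chosen with earlier results known, so it adds nothing to the values. A changed ratio shows unequal change and does not show that Rrm2b or Tk2 stayed constant. The size of the Rrm2 to Rrm2b change also depends on the Rrm2b probe set. The one used differed by 0.16 and the other bright one by -0.15.

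Probe sets of one gene did not all give the same size of difference. Of the 24 probe sets, 15 were bright enough to test, 13 of these had a difference below 0, 5 were called lower and none higher, against 2.49% of all 17206 tested probe sets called lower. Rrm2 was lower at 2 of its 3 probe sets (-0.96 and -0.93). The last Rrm2 probe set, with signals of 205, 130 and 176 in the wildtype pools and 121, 73.2 and 137 in the knockout pools, differed by -0.58 with overlapping groups (adjusted p = 0.351 with limma). The second bright Rrm1 probe set read 276, 197 and 265 in the wildtype pools and 206, 154 and 223 in the knockout pools, and its difference of -0.32 did not pass the test (adjusted p = 0.560 with limma). In both of these weaker probe sets pool 2 was the lowest of its genotype. The 3 Dtymk probe sets differed by -0.39 to -0.28, the 2 bright Dck probe sets by -0.57 and -0.31, and the 2 bright Rrm2b probe sets by 0.16 and -0.15, so that for Rrm2b not even the sign was shared. Tk1 and Tk2 each rest on 1 probe set and Dut on 1 bright one. The Rrm2 probe set that stands for the gene is of the type that may also bind related transcripts, but the second one, which is not of that type, showed nearly the same difference.

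**Figure D3:**
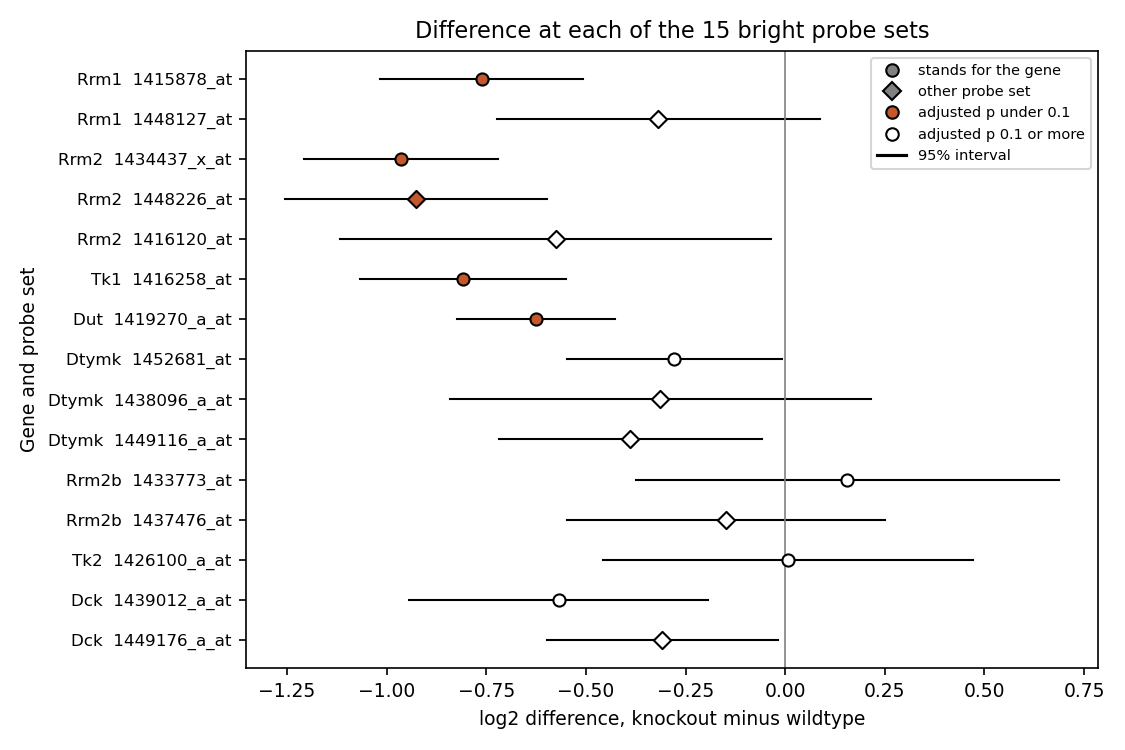
Log2 difference (knockout minus wildtype, horizontal axis) with its 95% interval at each of the 15 bright probe sets of the enzymes; filled symbols have an adjusted p under 0.1, and circles mark the probe set that stands for its gene. The 5 filled symbols belong to Rrm1, Rrm2, Tk1 and Dut, and 1 probe set each of Rrm1 and Rrm2 lies closer to 0.

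The calls of the 4 lower enzymes held without any 1 of the 6 pools (limma adjusted p from 0.0018 to 0.0766). Within the 3 arrays with brighter controls their differences were -0.95 (Rrm2), -0.85 (Tk1), -0.71 (Rrm1) and -0.53 (Dut), and within the 3 with dimmer controls -0.85, -0.71, -0.66 and -0.63, each resting on 1 array of one genotype. When the like pools 1 and 2 were averaged within genotype (2 samples against 2), all 4 calls ended (adjusted p from 0.131 to 0.281) at differences of -0.90 to -0.58. Rrm1 and Dut also lost their calls when median centring replaced quantile normalisation (adjusted p = 0.145 and 0.214), and when the mean over probe sets was used (0.268 and 0.175). Rrm1 then differed by only -0.32. That mean took in dim probe sets, of 2.17 to 10.7 units for Rrm1 (difference 0.11) and 24.6 to 56.0 units for Dut. Tk1 and Dut lost theirs with the submitters' error model (0.129 and 0.104).

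Both reductase subunits of S phase fell, and Tk1 fell where Tk2 did not pass the test, so the sequences before the starts of these 4 genes are shown. RefSeq windows were matched for 8 of the 9 members, all but Rrm2b. The 250 bases before the start were searched on both strands for TTCCCGCC, TTTCCCGC and TTTGGCGC (forms of the E2F element of S phase promoters), CCAAT (the CCAAT box), GGGCGG (the GC box) and TTTGAA (the CHR element of cell cycle genes), and capitals mark every match, none of which overlapped another. The windows are chr7:102441445-102441694 on the plus strand (Rrm1), chr12:24708004-24708253 on the plus strand (Rrm2), chr11:117826015-117826264 on the minus strand (Tk1) and chr8:104248559-104248808 on the minus strand (Tk2), build GRCm38, each printed 5′ to 3′ in the direction of its gene.
Rrm1: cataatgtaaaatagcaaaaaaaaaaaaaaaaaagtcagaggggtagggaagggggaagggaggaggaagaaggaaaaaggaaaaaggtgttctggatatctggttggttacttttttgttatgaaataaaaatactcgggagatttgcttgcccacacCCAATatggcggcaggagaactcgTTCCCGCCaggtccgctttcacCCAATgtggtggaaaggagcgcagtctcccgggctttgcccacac
Rrm2: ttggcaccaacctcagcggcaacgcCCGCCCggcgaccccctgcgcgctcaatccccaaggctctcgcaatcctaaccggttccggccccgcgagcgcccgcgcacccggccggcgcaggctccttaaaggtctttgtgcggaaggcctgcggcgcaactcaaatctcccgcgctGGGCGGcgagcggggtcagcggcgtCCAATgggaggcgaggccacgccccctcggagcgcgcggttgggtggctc
Tk1: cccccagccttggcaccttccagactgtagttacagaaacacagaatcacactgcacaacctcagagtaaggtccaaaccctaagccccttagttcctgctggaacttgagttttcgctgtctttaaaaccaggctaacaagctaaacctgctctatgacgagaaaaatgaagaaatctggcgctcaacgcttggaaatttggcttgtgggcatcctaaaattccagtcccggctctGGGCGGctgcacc
Tk2: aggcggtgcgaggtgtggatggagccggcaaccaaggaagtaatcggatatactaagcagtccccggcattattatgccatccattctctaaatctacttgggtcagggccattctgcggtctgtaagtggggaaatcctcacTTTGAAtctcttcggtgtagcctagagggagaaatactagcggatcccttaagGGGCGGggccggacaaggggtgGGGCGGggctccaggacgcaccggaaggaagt

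The E2F form TTCCCGCC was found in Rrm1 alone of the 8 member windows, 67 to 60 bases before the start and between 2 CCAAT boxes, and in 1.86% of all 32851 windows. TTTCCCGC and TTTGGCGC were in none of the 8 (0.895% and 0.417% of all windows). CCAAT was in Rrm1, Rrm2 and Dtymk (33.8% of all windows), and GGGCGG in 6 of the 8, namely Rrm2, Tyms, Tk1, Dut, Tk2 and Dck (32.7% of all windows). TTTGAA was in 2 of the 8, both constitutive, Tk2 and Dck (5252 of all 32851 windows). A match describes letters in this window and no match says only that these letters are not in it.

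No gene of the neighbouring steps of nucleotide metabolism passed the test. Of 18 tested genes among other deoxynucleotide kinases and breakdown enzymes, 10 in the folate cycle and 18 in ribonucleotide synthesis, none was called higher or lower with limma or with the submitters' error model. At an unadjusted p under 0.05 (limma), 1 was lower and 2 higher in the first list, 1 lower in the second and 1 lower and 1 higher in the third, against 6.84% of all tested genes lower and 6.68% higher. Their median differences were 0.10, -0.16 and -0.05. In the values as deposited the median of all tested genes was 0.13, and these 3 medians were 0.25, -0.03 and 0.06. The genes past the unadjusted threshold were Dctpp1, which breaks down noncanonical dCTP analogues (-0.55), Upp1 (0.46), Cda, cytidine deaminase (0.33), the mitochondrial serine hydroxymethyltransferase gene Shmt2 (-0.46), the purine salvage enzyme Hprt (-0.39) and the guanine nucleotide enzyme Impdh1 (0.35), named after their values were seen. Dguok, the mitochondrial partner of Tk2 that phosphorylates purine deoxynucleosides, differed by 0.01 (95% interval -0.32 to 0.34) and Dctd, dCMP deaminase, by -0.01 (-0.31 to 0.29). Samhd1, which hydrolyses deoxynucleotides in resting cells, differed by -0.26 (-0.69 to 0.17) and the diphosphate kinase Nme1 by -0.21 (-0.45 to 0.02).

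DNA replication genes were often lower. Of 40 tested, 19 were called lower and none higher, with a median of -0.50, against 2.63% of all tested genes lower. The count of 19 was 32 without wildtype pool 3, 11 without wildtype pool 1, 9 without knockout pool 1 and 9 without knockout pool 2. It was 11 with the submitters' error model, 8 with median centring and 3 with like pools averaged. Uhrf1, which helps to copy DNA methylation, fell by 1.21 on the log2 scale, the helicase subunit gene Mcm7 by 0.84 and Pcna, the sliding clamp, by 0.81. Of 15 tested p53 targets, the class to which Rrm2b belongs, 1 was higher and none lower, with a median of 0.14, against 2.03% of all tested genes higher. It was the antiproliferative gene Btg2, which rose 1.49-fold (adjusted p = 0.0479 with limma). Cdkn1a, a p53 target that inhibits cyclin-dependent kinases, differed by -0.06 (95% interval -0.39 to 0.27). Gadd45a, a p53 target of the stress response named after its value was seen, had the largest difference of the list (-0.94, 95% interval -1.61 to -0.26). All its knockout pools lay below all wildtype pools, as in 9.48% of all tested genes, but it missed the threshold (adjusted p = 0.179 with limma). Only 3 of the 15 had a negative difference. In 3 of the 15 every knockout pool lay above every wildtype pool, against 1147 of all 10916 tested genes.

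**Figure D4:**
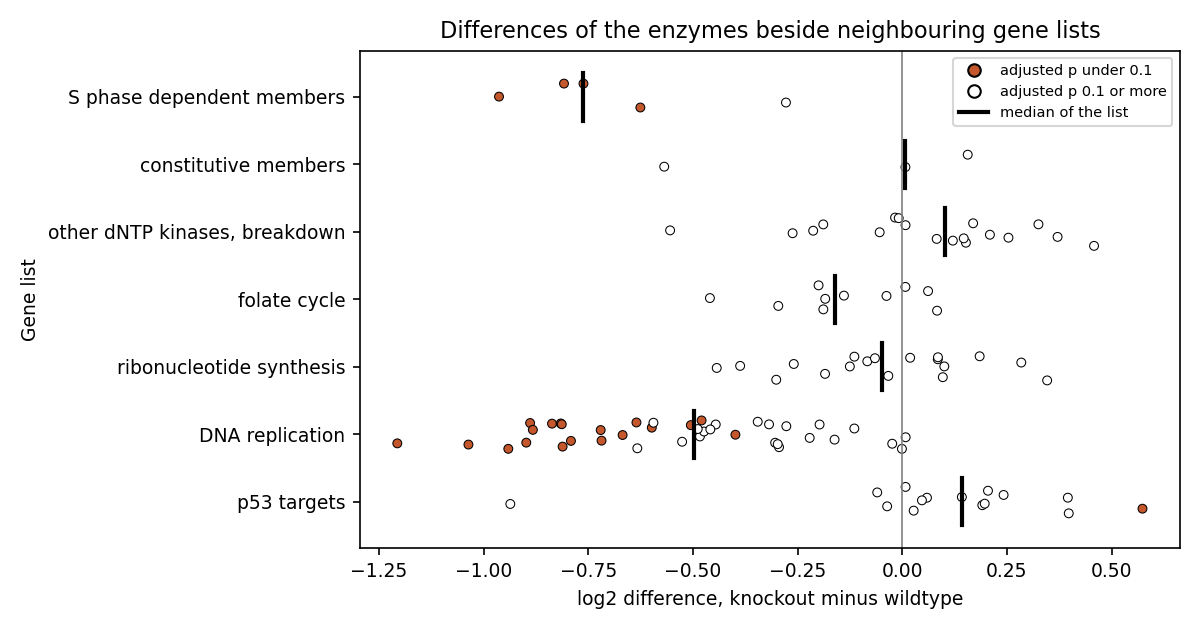
Each point is the log2 difference (knockout minus wildtype, horizontal axis) of 1 tested gene, by gene list, with filled points at an adjusted p under 0.1 and a bar at the median. The medians are -0.76 for S phase dependent members, 0.01 for constitutive members and -0.50 for DNA replication genes.

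Over the 6 arrays the log2 levels of Rrm1, Rrm2, Tk1 and Dut correlated with Pearson's r of 0.979 to 0.995, as a description of arrays that share genotype and, for pools 1 and 2, likeness. With these enzymes, which had been called lower, Dtymk correlated at 0.84 to 0.92 and the constitutive Dck at 0.85 to 0.92. Rrm2b correlated with them at -0.46 to -0.31 and Tk2 at 0.02 to 0.21. Outside the members, the genes with the profile most like Rrm2 over the 6 arrays were Rere, Notch1 and Meis2 (r = 0.999, 0.998 and 0.998). Those most like Tk1 were Zfp367, Pclaf and Rere (all r = 0.997). Rrm2b was most like Dock9, Zfp322a and Slc18a1 (r = 0.999, 0.997 and 0.997), genes whose wildtype pool 3 was the highest of all 6 arrays. With 6 arrays such values are common: 245, 209 and 330 genes had r above 0.95 with Rrm2, Tk1 and Rrm2b.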

How the data were processed

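Per the labels' protocols, biotin-labelled cRNA of 6 retina pools was made with 1 amplification round for Affymetrix arrays. The deposited table holds 1 linear intensity per probe set and array; how probes were summarised and scaled is not stated in any source used here. The table has no detection calls. Probe sets were named through the platform annotation, with symbols updated through RefSeq gene names (GRCm38.p6).

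Intensities of the 45037 probe sets that are not controls were quantile normalised, floored at 1 and taken to log2(value + 16). Of 18193 genes the dimmest 40% (7277) were not tested. For the other 10916, limma 3.58.1 was run under R 4.3.3 (lmFit, eBayes with an intensity trend, two-sided, no covariate, Benjamini-Hochberg), at the submitters' false discovery rate of 0.1, and all probe sets above the same brightness were fitted likewise. The code was tested on simulated data. The members, lists and alternatives were chosen with earlier results of these data known. Named are all members, Ccnd1, called genes of the lists by smallest p, a few fixed genes and the 3 genes most like Rrm2, Tk1 and Rrm2b. Outside this rule, genes of the 3 nucleotide lists at an unadjusted p under 0.05, the tested retina markers and Gadd45a were named after their values were seen. Of the probe sets for a member, 1 was left out because it names several genes. Figures were drawn with matplotlib 3.10.9. Alternatives covered scaling, pseudocount, filter, probe set, variance model, threshold, blocks, averaged pools and single arrays.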

Additional observations from a re-analysis of the deposited data

How the results depend on the processing

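Under 20 alternatives the count of 4 members lower became 2 with median-centred arrays, 2 with the mean over probe sets, 2 with the submitters' error model and 0 with like pools averaged. It was 5 with array set as a block, where 1 constitutive member, Dck, was called lower; without any 1 array it ran from 4 to 6, the 6 being without wildtype pool 3. None was called higher under any of them. With the replicate number as a block the count was also 4, and that of replication genes was 10 in place of 19. Same-numbered pools did not deviate together (r = 0.17, -0.35 and -0.48 for numbers 1, 2 and 3). These deviations are from means of only 3 pools per genotype, so they cannot tell whether same-numbered pools share more than a number. The S phase dependent minus constitutive distance of -0.55 ran from -0.61 to -0.49 over 19 alternatives. It was not computed with the probe set of largest difference, where Rrm2b was not tested. Rrm1, Rrm2, Tk1, Dut, Dtymk and Dck were lower in the knockout under all 20. Tk2 and Rrm2b, never called, changed sign. Tk2 went to -0.0070 with median-centred arrays and -0.00015 with a pseudocount of 64; without single arrays it ran from -0.21 to 0.12. Rrm2b went to -0.020 with like pools averaged and also with array set as a block; without single arrays it ran from -0.068 to 0.41. Over all genes, 287 lower and 222 higher calls became 176 and 416 in the values as deposited. Both counts were lowest with like pools averaged (26 and 17) and highest without wildtype pool 3 (1084 and 866). Replication genes called lower ran from 3 to 32, against 19, at the same settings. The causes were not tested. Dim signals, as for Tyms, limit what can be seen.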

Other observations

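One more probe set is annotated to Tyms together with its pseudogene Tyms-ps, and its signal cannot be assigned to either. Its signals were 319, 299 and 408 units in wildtype pools 1, 2 and 3 and 328, 321 and 260 in knockout pools 1, 2 and 3. The groups overlapped, and the log2 difference was -0.16 (95% interval -0.50 to 0.18, limma adjusted p = 0.808). The interval does not reach the difference of -0.76 seen for Rrm1, nor those of Rrm2, Tk1 and Dut. The difference of -0.34 at the brightest probe set of Tyms alone lies within this interval. As the signal cannot be assigned, neither comparison shows how much Tyms itself changed.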
